A study of Schizosaccharomyces pombe with 6 samples.

Results

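Rapalink-1 was compared directly with rapamycin in fission yeast (Schizosaccharomyces pombe), over every gene with a mean of at least 1 FPKM across the libraries, which kept 4847 of the 7268 genes measured. FPKM are fragments per kilobase of gene model, scaled to the size of the library, so levels can be compared between genes. The strain was the wild type 972 in every library, growing in complete YES medium with glucose, and no gene was deleted or tagged. A pair of mother cultures was each split into 3 flasks, which were left untreated or received rapamycin or rapalink-1, each at 100 nM, and were harvested after 5 h. RNA was thus sequenced from 2 cultures per condition, 6 libraries in all. The 4 drug-treated ones are compared. The 2 untreated ones give the background, and they also enter the filter on level and the estimate of spread in the test. The labels do not say which flasks came from the same mother culture. P-values therefore measure the spread between these cultures, grown side by side in 1 experiment.

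TOR kinases work in 2 complexes, of which TORC1 drives growth and protein synthesis when nutrients are plentiful and holds back nitrogen scavenging, autophagy and sexual differentiation. Rapamycin binds the small prolyl isomerase FKBP12, called Fkh1 in fission yeast, and the pair docks beside the TOR active site, an allosteric block that leaves some TORC1 substrates phosphorylated. Rapalink-1 joins rapamycin through a linker to sapanisertib (MLN0128), which occupies the ATP pocket, so 1 molecule reaches both sites. In nitrogen-poor cells the GATA factor Gaf1 is known to turn on genes for permeases and for the breakdown of nitrogen compounds. How far the transcriptomes of cells given the bivalent and the allosteric compound differ, at 1 dose and 1 time, is the question of the comparison.

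Library totals ran from 16527483 to 26321118 reads, with rapalink-1 at 16674483 and 16527483 and rapamycin at 19959695 and 26321118. The 10 most abundant genes took between 7.51% and 7.91% of the reads, rRNA between 0.117% and 0.243%, and between 5531 and 5626 genes had reads. No library stood apart from its partner, the median gap between replicates being between 0.06 and 0.07 log2 units in each condition. In bulk RNA, fewer cells expressing a gene and less RNA of that gene per cell cannot be told apart.

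The bivalent compound differed from rapamycin in genes that take up and break down nitrogen compounds, in mating genes and in stress genes, which were higher, and in genes that build ribosomes and translate, which were lower. The largest difference was 4.35 log2 units upward and, among protein-coding genes, 1.30 downward. Differences are given as rapalink-1 minus rapamycin on a log2(FPKM + 1) scale, which understates the change of low genes. Fold values of single genes are ratios of mean FPKM. The thresholds of 1.2-fold, 1.5-fold and 2-fold, for counts, intervals and gene groups, were instead set on the log2(FPKM + 1) difference. A gene is called where its limma p, adjusted by Benjamini and Hochberg over all 4847 genes, was at most 0.05. That held for 1802 genes (37.2%), 957 higher (19.7%) and 845 lower (17.4%), and these shares are the background against which every gene group below is set. An unadjusted p under 0.05 was found for 2273 genes (46.9%). Both rapalink-1 libraries lay above both rapamycin libraries in 1679 genes (34.6%) and below both in 1714 (35.4%). A lack of overlap between the compounds in a single gene is thus common. At 1.2-fold 589 were higher (12.2%) and 446 lower (9.2%), at 1.5-fold 219 (4.52%) and 58 (1.2%), and at 2-fold 94 (1.94%) and 3 (0.0619%). The 3 were the permease gene cat1 and the rRNA genes SPRRNA.43 and SPRRNA.47, the last chosen after its values were seen. The call of SPRRNA.43 was lost without the second rapamycin library (adjusted p = 0.24 with limma), and copies of its sequence cover all of it. Higher genes made up 53.1% of the calls, and 41.6% after quantile normalization, which gave 792 higher and 1114 lower. Without the first rapamycin library 551 genes were lower.

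**Figure D1:**
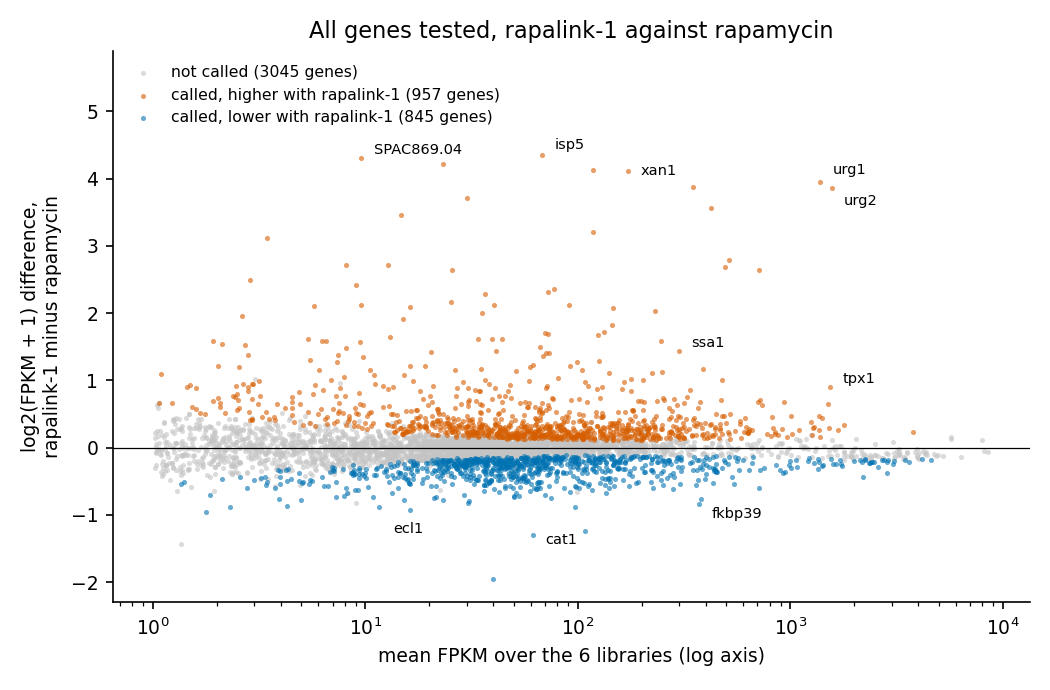
Each point is 1 of the 4847 genes tested, with its mean FPKM over the 6 libraries on a log axis and its difference between rapalink-1 and rapamycin in log2(FPKM + 1) units. The 957 genes called higher reach 4.35 upward, whereas the 845 called lower mostly lie within 1 unit of zero.

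For the rest of the transcriptome the data bound the difference between the compounds. The 95% interval of 2006 genes (41.4%) lay wholly within a 1.2-fold change in either direction, and 182 of these were nevertheless called. Among the 3045 genes not called, 1824 were bounded in this way. The other 1221 were neither called nor bounded, so nothing is shown about them at this depth and replication. The median interval reached 0.13 log2 units to each side.

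The sequence upstream of several of the genes that rose is shown first, since the GATA factors bind the core GATAAG. In each 30-base window, written 5′ to 3′ on the strand of the gene, capitals mark GATAAG or its reverse complement CTTATC. The windows come from the RefSeq genome ASM294v3 and were read within 250 bases before the RefSeq transcript start, at chrI:5466617-5466646 (+) for isp5, chrI:5470780-5470809 (+) for mmf2, chrI:3749327-3749356 (+) for per1, chrI:1840546-1840575 (+) for SPAC1399.04c and chrI:5512619-5512648 (+) for SPAC869.03c.
isp5: gcaaaaattgttCTTATCttgtaaattgaa
mmf2: gatatttgtaaaGATAAGattgccatggag
per1: cgtttttaatttCTTATCcgtcctcttatt
SPAC1399.04c: catcaaccttttCTTATCgaatttcagttt
SPAC869.03c: atattatttaaaCTTATCtctaatattgat

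The gene isp7, whose product is a 2-oxoglutarate oxygenase that influences amino acid uptake, held 3 such sites in its window on the minus strand, at chrI:4183180-4183209, chrI:4183111-4183140 and chrI:4183068-4183097.
isp7 first site: cccctactgcacCTTATCatatatgcacca
isp7 second site: tcgctctatgcaGATAAGgaccgagggtga
isp7 last site: atatagagacgaGATAAGgacaggttgacc

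GATAAG on either strand lay in the 250 bases upstream of 40 of 184 genes higher by at least 1.5-fold (21.7%), of 7 of 40 lower by that much (17.5%) and of 463 of all 4316 coding genes with a window (10.7%). Of the genes higher by at least 2-fold, 20 of 77 held it (26.0%). Sites occurred at least 2 times in 3.80% of the windows of genes higher by 1.5-fold and in 0.857% of all windows. Among the 15 largest increases only 3 held the letters, and among the 15 largest decreases 4 did. A match is a description of letters and not a mapped site. The gene models of the files and of RefSeq share the 3′ end for 99.5% of coding genes but the 5′ end for 3.85%, and the printed windows of isp5, mmf2, per1, SPBC8E4.03, mfm1, rpl3002 and of the last isp7 site lie inside the longer models of the files.

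Amino acid permease genes were among those with the largest differences. Of 18 permease genes tested, 10 were higher with rapalink-1, 2 were lower and 6 were not called, with a median difference of 0.32 beside −0.0036 over all genes. The summed level of the 18 was 1109 and 984.2 FPKM with rapalink-1 against 455.4 and 449 with rapamycin and 429.8 and 454.3 untreated. Isp5, an amino acid permease induced when fission yeast is starved of nitrogen, measured 208 and 169.8 FPKM with rapalink-1, 8.09 and 8.54 with rapamycin, and 6.06 and 7.10 untreated. Both rapalink-1 cultures stood far above the other 4 libraries, which nearly coincided. The difference was 4.35 (SE 0.10, adjusted p = 5.2e-08 with limma), a 22.7-fold ratio, in a model of which 21.2% is overlapped by other models.

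The predicted amino acid transporter SPBPB2B2.01 gave 71.4 and 57.8 FPKM with rapalink-1, 2.30 and 2.78 with rapamycin, and 2.17 and 3.16 untreated, and rose by 4.21 (SE 0.15). A further predicted permease, SPAC1039.01, gave 314 and 259.7 FPKM with the bivalent compound against 29.8 and 30.1 with rapamycin, a rise of 3.21 (SE 0.10). The untreated cultures held 33.5 and 40.3 FPKM of it, so only rapalink-1 lay apart. For per1, which encodes a permease of the plasma membrane, the rapalink-1 cultures measured 80.6 and 72.8 FPKM and the rapamycin cultures 24.9 and 23.9, a rise of 1.61 (SE 0.10). The proline permease gene put4, chosen after its values were seen, measured 14.1 and 11.2 against 2.33 and 2.02 FPKM, but 84.2% of its model is overlapped.

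Of the 2 permease genes that were lower, cat1, a transporter of basic amino acids, measured 28.8 and 35.0 FPKM with rapalink-1, 82.1 and 77.5 with rapamycin, and 73.0 and 71.2 untreated. The rapalink-1 cultures were the low ones and no group overlapped with them. The gene fell by 1.30 (SE 0.08, adjusted p = 7.2e-06 with limma), to 0.399 of the rapamycin level, which was the largest decrease among protein-coding genes of at least 5 FPKM.

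All 3 transporters of oligopeptides and glutathione were higher. Isp4, an oligopeptide transporter named for its induction in the sexual phase, stood at 345 and 281 FPKM with rapalink-1, 16.6 and 17.4 with rapamycin, and 19.5 and 23.5 untreated. Rapamycin cultures lay slightly below untreated ones and rapalink-1 cultures 18.4-fold above rapamycin, a difference of 4.12 (SE 0.11). The di- and tripeptide transporter gene ptr2 measured 142 and 121 FPKM, against 53.1 and 58.4 with rapamycin and 79.5 and 99.1 untreated. Ptr2 thus passed the test in opposite directions against the untreated cultures, with 0.56 (adjusted p = 0.003) for rapalink-1 and −0.66 (adjusted p = 0.0062) for rapamycin, both from limma. The glutathione transporter gene pgt1 differed less, by 0.47 (SE 0.08).

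Genes that release nitrogen from purines and urea formed the next group, with 8 of 12 higher, 1 lower and a median of 0.85. Xan1, a dioxygenase that makes uric acid from xanthine, measured 537 and 391 FPKM with rapalink-1, 26.0 and 25.2 with rapamycin, and 25.4 and 26.1 untreated. Rapamycin and untreated cultures overlapped, and rapalink-1 lay 18.1-fold above, a difference of 4.11 (SE 0.12, adjusted p = 1.35e-07 with limma). The following steps of the same route were higher as well, by 2.00 (SE 0.10) for the uricase gene SPCC1223.09 and by 1.71 (SE 0.08) for the allantoicase gene SPAC1F7.09c. The predicted urea transporter SPAC869.03c was nearly silent with rapamycin at 0.523 and 0.592 FPKM and reached 8.87 and 6.76 with rapalink-1. SPAC869.04, a formamidase-like gene next to it, measured 32.7 and 23.6 FPKM with rapalink-1 against 0.529 and 0.387 with rapamycin and 0.125 and 0.0924 untreated. Its difference of 4.31 (SE 0.17) became 5.97 at most under other scales, and the FPKM ratio was 61.4.

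Of 12 genes for pyrimidine salvage and breakdown, 7 were higher and 1 lower, with a median of 1.30, and their summed level was 10420 and 8642 FPKM with rapalink-1 against 896.6 and 975.5 with rapamycin and 970.4 and 1269 untreated. Urg1, a protein similar to GTP cyclohydrolase whose gene is well known for its induction by uracil, measured 3919 and 3325 FPKM with rapalink-1, 218 and 249.6 with rapamycin, and 219 and 357 untreated. Every rapalink-1 value was above every other, and the second untreated culture was the highest of the remainder. The rise over rapamycin was 3.95 (SE 0.19, adjusted p = 1.7e-06 with limma). The neighbouring uracil gene urg2 rose by 3.85 (SE 0.15), from 265 and 299 to 4479.9 and 3707 FPKM.

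SPAC1399.04c, a predicted uracil phosphoribosyltransferase that would return uracil to the nucleotide pool, gave 1171 and 898 FPKM with rapalink-1, 81.8 and 91.1 with rapamycin, and 129 and 179 untreated. Here the rapamycin cultures were the lowest, with a difference of −0.81 (adjusted p = 0.011) from untreated, while rapalink-1 differed from untreated by 2.75 (adjusted p = 3.1e-06), both from limma. The predicted nucleoside hydrolase gene SPBC800.11 was higher by 2.13 (SE 0.09) than with rapamycin, in a model overlapped over 25.9%. The opposite route, synthesis of pyrimidines from scratch, went down: 6 of 6 genes were lower, with a median of −0.33. Ura3, which encodes dihydroorotate dehydrogenase in this yeast, measured 278 and 272 FPKM with rapalink-1, 408 and 399.9 with rapamycin, and 407 and 396 untreated. Rapamycin and untreated cultures overlapped, and the fall with rapalink-1 was by 0.55 (SE 0.04). Ura1, the large enzyme of the first steps, differed by −0.45 (SE 0.05).

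Of 22 enzymes of arginine, agmatine, proline and polyamines, 11 were higher and 5 lower, a more divided group with a median of 0.17. Those with the largest differences break these compounds down. The predicted agmatinase gene SPBC8E4.03 measured 306 and 273 FPKM with rapalink-1, 82.7 and 79.3 with rapamycin, and 59.9 and 66.7 untreated, with 27.8% of the model overlapped. The 3 conditions separated completely, and the step from rapamycin to rapalink-1 was 1.82 (SE 0.07, adjusted p = 4.7e-07 with limma). A second predicted agmatinase, SPAPB24D3.03, was higher by 1.36 (SE 0.07), the arginase gene car1 by 1.44 (SE 0.08) and the predicted proline dehydrogenase gene SPCC70.03c by 1.13 (SE 0.05). With rapamycin, SPAPB24D3.03 stood at 43.6 and 45.5 FPKM and with no compound at 44.3 and 44.0. Both agmatinase genes hold GATAAG upstream of the RefSeq start, SPBC8E4.03 in 2 places on the minus strand, at chrII:4435825-4435854 and chrII:4435790-4435819, where models of 3 non-coding RNAs also lie, and SPAPB24D3.03 once on the plus strand, at chrI:2952074-2952103.
SPBC8E4.03 first site: agatcgtgcagtGATAAGtcagcgcagcga
SPBC8E4.03 second site: tcacgctcaatcCTTATCagtccgatgtcc
SPAPB24D3.03: aattctggatagGATAAGagatttcaataa

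Among 6 genes for ammonium transport and glutamate assimilation, 4 were higher and 1 lower. Glutamine synthetase, gln1, measured 466 and 394 FPKM with rapalink-1, 241 and 231 with rapamycin, and 338 and 354 untreated. Rapamycin cultures were below and rapalink-1 cultures above the untreated ones, and the difference between the compounds was 0.86 (SE 0.07, adjusted p = 4.4e-05 with limma). Of the ammonium transporters, amt1 was higher by 0.94 (SE 0.14), with 71.2 and 60.5 against 31.7 and 36.0 FPKM, and amt2 fell by 0.68 (SE 0.08). The amt2 model is 71.0% overlapped by other models, and the strand of counting was not given in the sources used here.

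**Figure D2:**
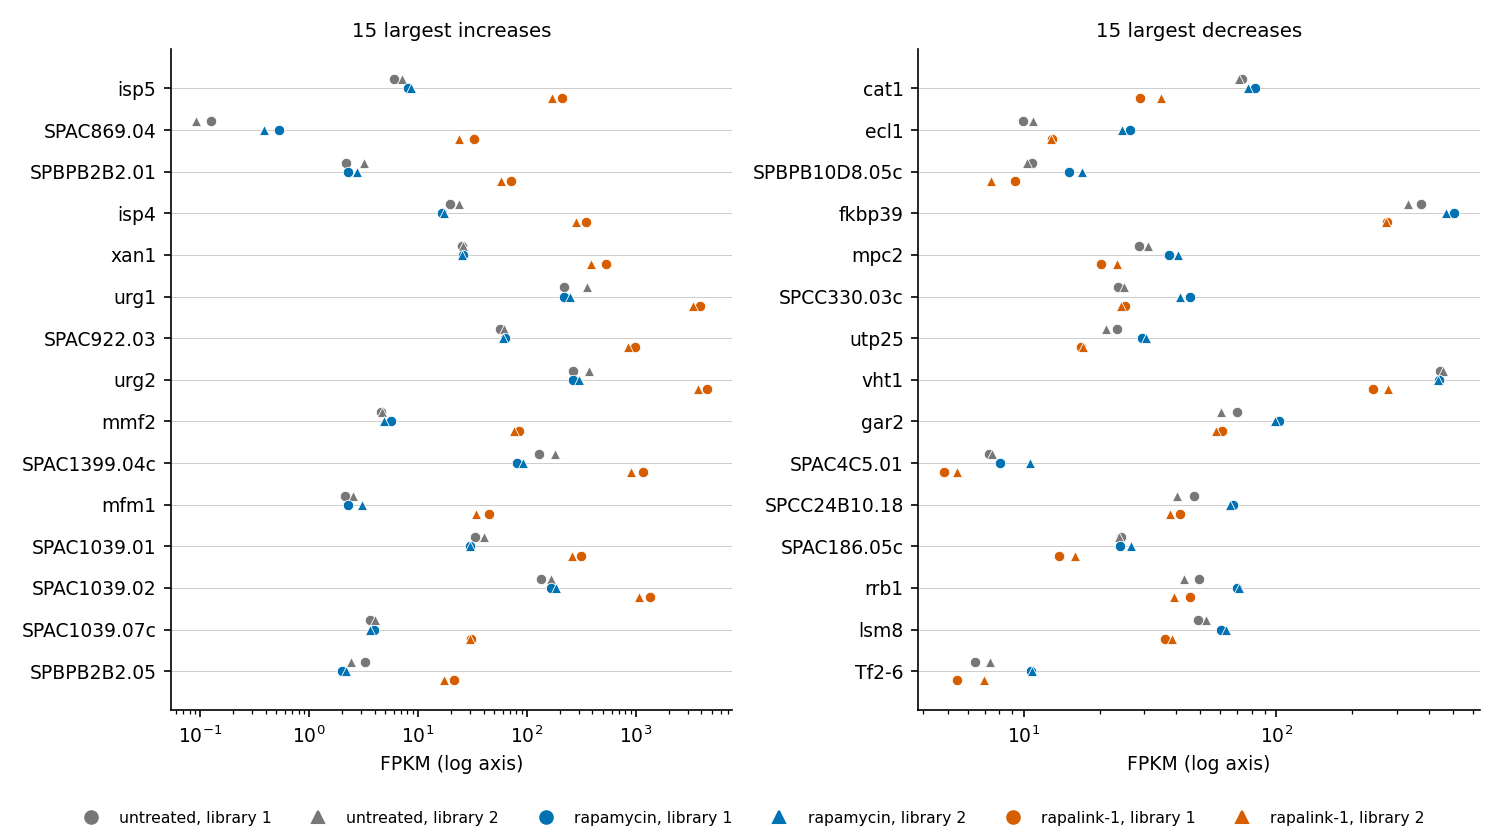
FPKM on a log axis in each of the 6 libraries, for the 15 coding genes that rose most and the 15 that fell most from rapamycin to rapalink-1. On the left the rapamycin points sit near the untreated points and the rapalink-1 points lie apart, as in isp5 with 208 and 169.8 against 8.09 and 8.54 FPKM.

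In every one of the 15 largest increases the first rapalink-1 culture was above the second. The same order held in 83 of the 94 genes higher by at least 2-fold (88.3%) and in 2457 of all 4847 genes (50.7%). The rapamycin cultures showed the same order, first above second, in 45 of the 94 (47.9%). The size of these increases thus differed between the rapalink-1 cultures. That each was above both rapamycin cultures was a condition for choosing the 15, and is no result.

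Several of the increases are neighbours on the chromosome. Between 5444360 and 5514865 on chromosome I, a stretch of 70.5 kb near the right end chosen after its values were seen, 26 genes were tested, of which 19 were higher, 12 of them by at least 2-fold, 1 was lower and 6 were not called. It holds SPAC1039.01, isp5, put4, SPAC869.04 and SPAC869.03c, and also cat1, the 1 lower gene, which lies next to put4. SPAC922.03, a predicted deaminase, measured 991 and 852 FPKM with rapalink-1, 63.1 and 60.9 with rapamycin, and 56.8 and 61.1 untreated. Its difference of 3.87 (SE 0.07, adjusted p = 1.4e-08 with limma) had the smallest error among the 15 largest increases. Mmf2, related to factors of isoleucine synthesis, rose by 3.71 (SE 0.09), and the predicted phosphatase gene SPAC1039.02 by 2.79 (SE 0.12). SPAC1039.07c, a possible transaminase, has 92.8% of its model covered by other models, so its rise of 2.72 (SE 0.09) is uncertain.

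A second stretch, at the right end of chromosome II between 4457661 and 4490271, held 9 tested genes, of which 8 were higher and 1, the pantoate gene pan5, was lower. It begins with SPBPB2B2.01 and includes SPBPB2B2.05, a predicted peptidase that rose by 2.72 (SE 0.14), and the galactose genes gal1 and gal7, with 0.66 (SE 0.09) and 0.50 (SE 0.06), all of them chosen after their values were seen apart from the first and SPBPB2B2.05. Over the 100 kb at the outer ends of chromosomes I and II, which include genes of both stretches, 34 of 83 coding genes were higher and 14 lower. These are 41.0% and 16.9%, beside 19.7% and 17.4% of all genes, and the median was 0.24. With rapamycin 30 of the 83 were higher than untreated and 0 lower, beside 10.4% and 7.28% of all genes. With rapalink-1 49 were higher than untreated and 9 lower, beside 24.8% and 22.5%.

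**Figure D3:**
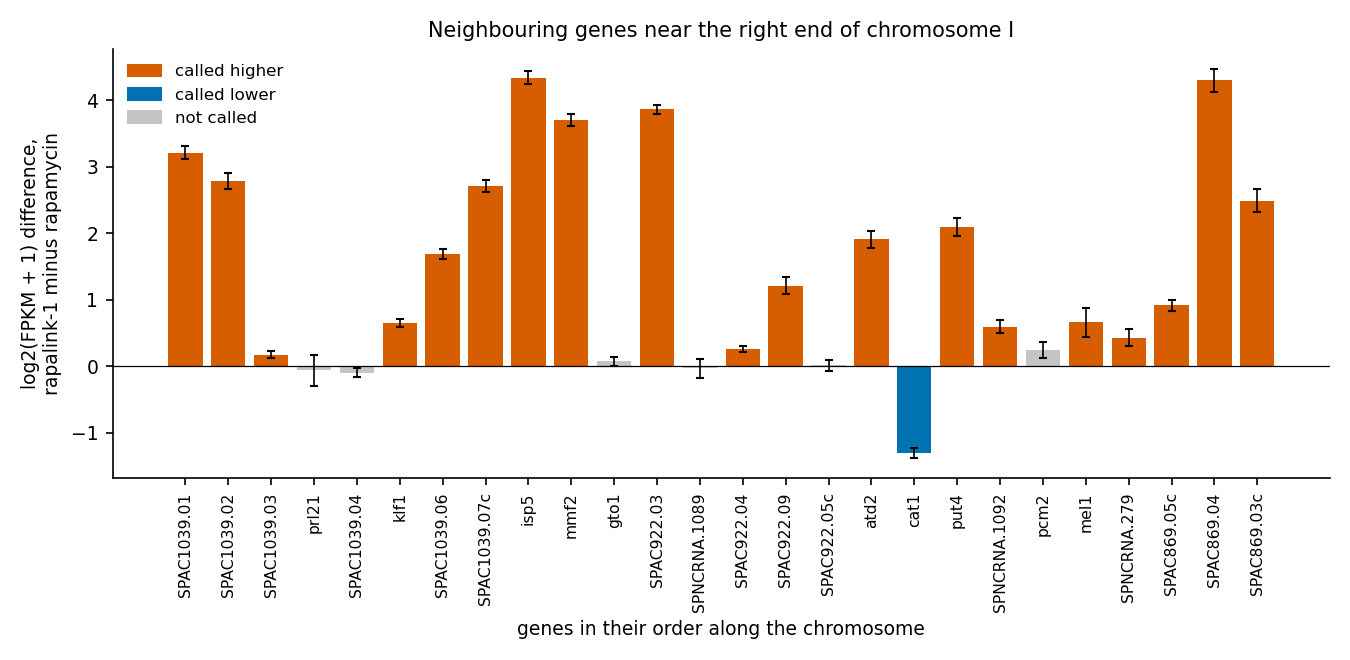
Bars give the difference in log2(FPKM + 1) between rapalink-1 and rapamycin, with its standard error, for the 26 tested genes of the chromosome I stretch in their order along the chromosome. Tall bars such as isp5 at 4.35 and SPAC869.04 at 4.31 stand beside genes that were not called, and cat1 at −1.30 is the single bar called downward.

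Autophagy is the route by which cells digest their own contents in the vacuole. Of 23 autophagy genes, 12 were higher and 1 lower, with a median of 0.22, and without the first rapamycin library 7 were higher. Atg8, the ubiquitin-like protein of the autophagosome membrane, measured 131 and 121 FPKM with rapalink-1, 99.3 and 92.1 with rapamycin, and 83.7 and 80.0 untreated. The conditions lay in that order with no overlap, and the difference between the compounds was 0.40 (SE 0.05). Among 30 vacuole genes 14 were higher, 5 lower and 11 not called, and without the second rapamycin library 7 were higher. The vacuolar serine protease gene isp6 stood out with 225 and 217 against 101 and 103 FPKM, a rise of 1.11 (SE 0.06).

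Other uptake genes varied by nutrient. Of 7 hexose transporters 3 were higher and 4 not called, led by ght1 at 0.86 (SE 0.13) and ght5, a high-affinity glucose transporter, at 0.67 (SE 0.12). A related sequence at 92.4% identity covers 78.1% of ght5, so its reads may be shared. In phosphate uptake 3 of 5 genes were higher and 2 lower, with tgp1, a glycerophosphodiester transporter, at 1.42 (SE 0.11) and the acid phosphatase pho1 at 1.11 (SE 0.10), while pho4, an acid phosphatase repressed by thiamine, fell by 0.35 (SE 0.04). Vitamin uptake and thiamine genes went the other way, with 6 of 12 lower and 6 not called. The biotin transporter gene vht1 measured 240.3 and 276 FPKM with rapalink-1, 441 and 434 with rapamycin, and 444 and 455 untreated, and fell by 0.76 (SE 0.06). The pyridoxine transporter gene bsu1 fell by 0.57 (SE 0.07).

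Genes of sexual differentiation, which fission yeast starts when nitrogen runs out and TORC1 is low, were higher in 16 of 25 cases and not called in 9, with a median of 0.59. The members are a mixed list of pheromone, receptor and meiosis genes, many of them targets of the transcription factor Ste11. Mei2, the RNA-binding protein that starts meiosis, measured 23.1 and 21.0 FPKM with rapalink-1, 3.46 and 3.16 with rapamycin, and 1.71 and 2.01 untreated. The conditions separated without overlap, with a difference between the compounds of 2.42 (SE 0.11, adjusted p = 1.35e-06 with limma). The pheromone precursor genes mfm1 and mfm2, which encode M-factor, were higher by 3.45 (SE 0.15) and 2.07 (SE 0.06). For mfm1 the values were 44.5 and 34.0 FPKM with rapalink-1, 2.28 and 3.06 with rapamycin, and 2.15 and 2.52 untreated, and a related sequence at 92.7% identity covers 56.6% of its model.

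The gene ste11 itself, chosen after its values were seen, measured 56.4 and 49.0 FPKM with rapalink-1, 29.6 and 38.1 with rapamycin, and 18.1 and 21.7 untreated, a difference of 0.63 (SE 0.13). Isp7 followed another pattern, with 156 and 127 FPKM with rapalink-1, 22.1 and 32.1 with rapamycin, and 48.1 and 76.0 untreated. Rapamycin cultures were the lowest and rapalink-1 cultures the highest, and the compounds differed by 2.36 (SE 0.22, adjusted p = 7.85e-05 with limma).

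Ste11 is known to bind the letters TTCTTTG, which were found on either strand upstream of 10 of the 25 mating genes (40.0%) and of 7.85% of all coding genes. They are shown in capitals for mfm1 at chrI:4916926-4916955 (+), as the reverse complement CAAAGAA, and for mei2 at chrI:4515168-4515197 (−) and chrI:4515146-4515175 (−). The genes higher by at least 1.5-fold held them in 11.4% of windows and those lower by that much in 12.5%.
mfm1: gggtccgaccaaCAAAGAAgtctcagtttt
mei2 first site: aagccgaccgatTTCTTTGttcctatttta
mei2 second site: ctattttaaagtTTCTTTGttttacaaacc

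Sme2 and omt3 were among the non-coding genes with the largest differences. Sme2, the meiotic RNA that works with Mei2, measured 30.5 and 24.5 FPKM with rapalink-1, 6.92 and 9.36 with rapamycin, and 2.63 and 4.19 untreated, and omt3, an intergenic RNA close to mei2, measured 71.8 and 58.4 against 9.37 and 9.83. Each of the 3 conditions kept its own range for both. The differences between the compounds were 1.65 (SE 0.19) for sme2 and 2.63 (SE 0.12) for omt3. Over 474 non-coding RNAs, however, 58 were higher and 36 lower, shares of 12.2% and 7.60% that are under those of all genes.

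Stress genes were higher in 18 of 31 cases and lower in 3, with a median of 0.30. Their summed level was 12710 and 12730 FPKM with rapalink-1, 9567 and 9488 with rapamycin, and 8179 and 8633 untreated, 3 ranges that do not overlap. Among them the glutathione transferase gene gst2 rose by 1.02 (SE 0.05), the metallothionein gene zym1 by 1.00 (SE 0.06) and the peroxiredoxin gene tpx1 by 0.90 (SE 0.06). Tpx1, the main peroxide-scavenging peroxiredoxin, measured 2256 and 2103 FPKM with rapalink-1, 1209 and 1131 with rapamycin, and 1260.0 and 1289 untreated. The letters ACGTCA, part of the site that Atf1 is known to bind, lay upstream of 7 of the 31 stress genes (22.6%) and of 5.38% of all coding genes, against 7.61% of genes higher by at least 1.5-fold and 2.60% at 2-fold.

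Chaperones were divided, with 15 of 48 higher, 12 lower and a median of −0.02. Ssa1, a heat-inducible Hsp70, measured 513 and 541 FPKM with rapalink-1, 193 and 193 with rapamycin, and 167 and 180.4 untreated. The rapalink-1 cultures stood far above the rest, and the rise was 1.44 (SE 0.05, adjusted p = 2.5e-07 with limma). The small heat shock gene hsp16 rose by 1.17 (SE 0.12), the disaggregase hsp104 by 0.97 (SE 0.05) and the Hsp70 ssa2 by 0.64 (SE 0.06). Among the 12 lower were ssz1, which fell by 0.39 (SE 0.04), and the mitochondrial mge1, which fell by 0.51 (SE 0.05), both chosen after their values were seen. Without the first rapamycin or the first rapalink-1 library 7 chaperones were lower.

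Of 42 proteasome genes 26 were higher and 2 lower, with a median of 0.16. The largest difference was that of fub2, a predicted PI31-type regulator of low level, at 1.95 and 2.64 FPKM with rapalink-1 against 0.407 and 0.663 with rapamycin, or 1.10 (SE 0.20), in a model overlapped over 79.0%. The 20S subunit genes pre4 and pup2 were higher by 0.32 (SE 0.05) and 0.31 (SE 0.04). After quantile normalization 16 proteasome genes were higher. Respiratory chain and ATP synthase genes were higher in 29 of 50 cases and lower in 1, with a median of 0.20. Cox7, a subunit of cytochrome c oxidase, measured 619 and 564 FPKM with rapalink-1, 438 and 415 with rapamycin, and 455 and 433 untreated, a difference of 0.47 (SE 0.05). Core histone genes were higher in 6 of 8 cases and not called in 2, with hhf2, for histone H4, at 0.35 (SE 0.06), although related copies at 91.2% identity cover 40.1% of its model.

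**Figure D4:**
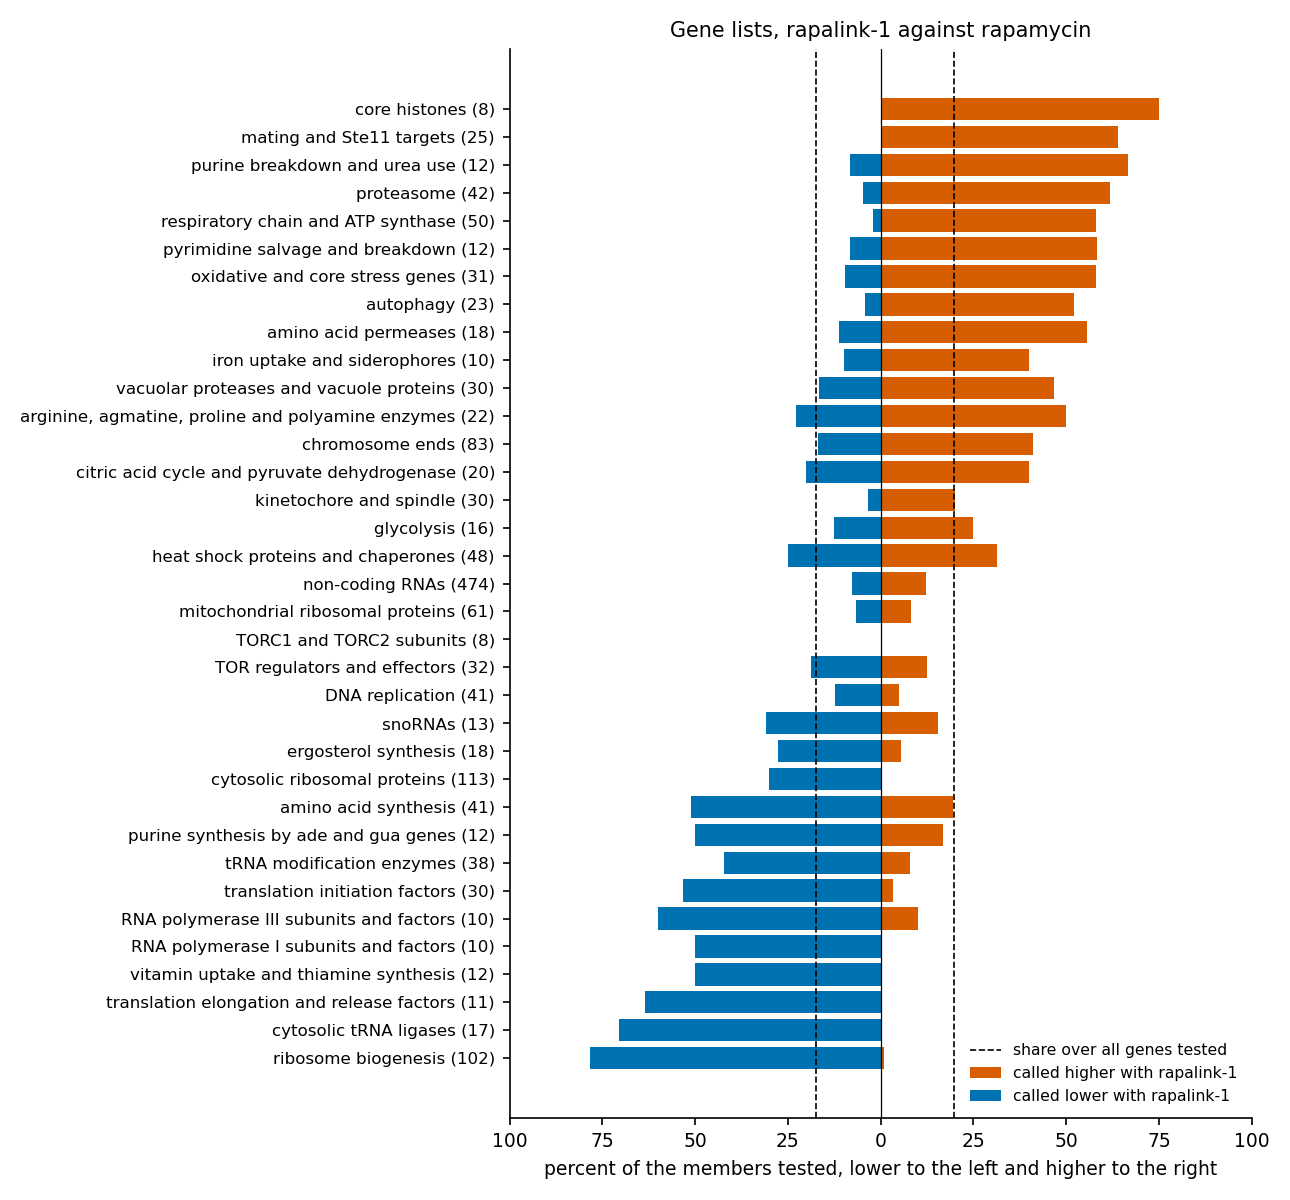
For each gene list with at least 8 members tested, the bar to the right gives the percent of its tested members called higher with rapalink-1 and the bar to the left the percent called lower, with the number tested in brackets. The dashed lines mark the shares over all genes, 19.7% and 17.4%, and ribosome biogenesis, with 80 of 102 genes lower, lies at the bottom.

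Ribosome biogenesis was the largest block of lower genes. Of 102 genes that process rRNA and assemble ribosomes, 80 were lower and 1 higher, with a median of −0.36. The list's median was 0.19 for rapamycin and −0.16 for rapalink-1, each set against the same untreated libraries. Against these, 35 genes were higher and 7 lower with rapamycin, beside 10.4% and 7.28% of all genes, and 1 was higher and 45 lower with rapalink-1, beside 24.8% and 22.5%. Their summed level was 8623 and 8509 FPKM with rapalink-1, 10950 and 10770 with rapamycin, and 10970 and 10180 untreated, so only the rapalink-1 cultures stood apart in the sum. Abundant members weigh most in such a sum, and the share of each was not computed.

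Gar2, the nucleolin-like protein of the nucleolus, measured 61.1 and 57.9 FPKM with rapalink-1, 103 and 98.3 with rapamycin, and 69.9 and 60.6 untreated. Rapamycin cultures were the high ones and the other 4 were close to each other, so the difference between the compounds, −0.74 (SE 0.07, adjusted p = 6.6e-05 with limma), came with 0.62 (adjusted p = 0.0012) for rapamycin and −0.12 (adjusted p = 0.16) for rapalink-1 against untreated. Models of other genes overlap 72.4% of gar2. Utp25, a protein of the small subunit processome, measured 16.9 and 17.1 FPKM with rapalink-1, 29.5 and 30.5 with rapamycin, and 23.5 and 21.2 untreated. The untreated cultures lay between the others, and the compounds differed by −0.78 (SE 0.07). Rrp9, a U3 snoRNP protein, measured 38.4 and 31.7 against 52.7 and 55.0 FPKM, with 34.3 and 30.9 untreated, a difference of −0.61 (SE 0.09). The ribosomal protein chaperone gene rrb1 measured 45.5 and 39.3 FPKM with rapalink-1, 69.6 and 70.8 with rapamycin, and 49.3 and 43.1 untreated. The compounds differed by −0.72 (SE 0.08). Against untreated the difference was 0.60 (adjusted p = 0.0029) for rapamycin and −0.12 (adjusted p = 0.26) for rapalink-1, both from limma.

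Of 113 cytosolic ribosomal protein genes 34 were called lower and 79 were not called, 103 had a negative difference, and the median was −0.13. Against the untreated libraries, which both comparisons share, the median was −0.30 for rapalink-1 and −0.17 for rapamycin. The number called moved with the libraries used, to 90 without the second rapamycin library, 11 without the first rapalink-1 and 14 without the second rapalink-1 library, and 20 without either untreated library, and it was 17 with the 4 drug-treated libraries alone and 54 with DESeq2 or after quantile normalization. Summed levels were 228100 and 234800 FPKM with rapalink-1, 265500 and 240100 with rapamycin, and 286400 and 279900 untreated. Rapalink-1 cultures were thus below both others, and the second rapamycin culture was close to them. The letters CAGTCAC, known as the HomolD box, lay upstream of 104 of these 113 genes (92.0%) and of 4.54% of all coding genes. They are shown for rpl3002, which differed by −0.47 (SE 0.04), at chrI:5095916-5095945 (−), as the reverse complement GTGACTG, and for rpl3402 at chrIII:1321292-1321321 (+).
rpl3002: gtttggatttatGTGACTGtttttcttgga
rpl3402: cacgatcccaaaCAGTCACgcaaaaagttg

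The rest of the translation apparatus followed, mostly with small differences. Lower were 16 of 30 initiation factors, 7 of 11 elongation and release factors, 12 of 17 cytosolic tRNA ligases and 16 of 38 tRNA modification enzymes, with medians of −0.14, −0.19, −0.16 and −0.16. At 1.2-fold 4, 2, 5 and 10 of them were lower. The interval lay wholly within 1.2-fold for 56.7%, 36.4%, 52.9% and 34.2% of the members, beside 41.4% of all genes. The initiation factor eIF4A gene SPAC1006.07 measured 1699 and 1782 FPKM with rapalink-1, 2378 and 2324 with rapamycin, and 2511 and 2447 untreated, and fell by 0.43 (SE 0.05). Eft202, 1 of 2 near-identical genes of elongation factor 2, fell by 0.34 (SE 0.05). Among RNA polymerase subunits and factors, 5 of 10 of polymerase I and 6 of 10 of polymerase III were lower. Ker1 of polymerase I fell by 0.60 (SE 0.07), rpa2 by 0.50 (SE 0.05) and rpc11 of polymerase III by 0.46 (SE 0.05). Against these, 3 modification enzyme genes were higher, among them tad2, for a tRNA adenosine deaminase subunit, by 1.15 (SE 0.07), and tum1, for a predicted enzyme of tRNA thiolation, by 0.53 (SE 0.05).

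Genes that make amino acids were lower in 21 of 41 cases and higher in 8, with a median of −0.13, and 13 were lower without the second rapalink-1 library. Lys4, the homocitrate synthase of lysine synthesis, measured 550.1 and 564 FPKM with rapalink-1, 849 and 848 with rapamycin, and 728 and 748 untreated. Rapamycin lay above and rapalink-1 below the untreated cultures with no overlap, and the compounds differed by −0.61 (SE 0.04, adjusted p = 1.0e-05 with limma). Leu3 of leucine synthesis fell by 0.56 (SE 0.06). Among the 8 higher genes arg12, the argininosuccinate synthase, led with 0.75 (SE 0.05), followed by met17 with 0.72 (SE 0.06). Purine synthesis was lower in 6 of 12 genes and higher in 2.

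**Figure D5:**
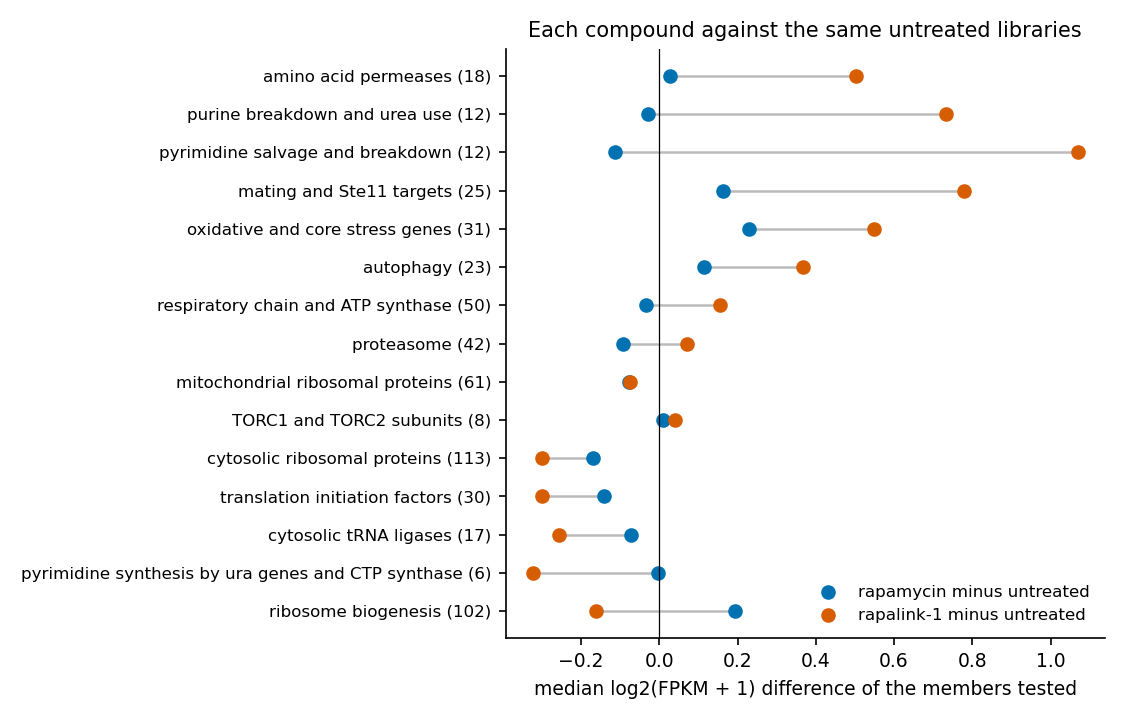
Median difference from the untreated libraries in log2(FPKM + 1) for 15 gene lists, with rapamycin in blue, rapalink-1 in orange and the number of genes tested in brackets. Both series share the same untreated libraries. Ribosome biogenesis lies at 0.19 with rapamycin and −0.16 with rapalink-1, and mitochondrial ribosomal proteins lie at −0.08 and −0.07.

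Several functions hardly separated the compounds. Of 61 mitochondrial ribosomal protein genes 45 had an interval within 1.2-fold (73.8%), of 41 DNA replication genes 32 (78.0%), and of 8 genes of TORC1 and TORC2 subunits 7, beside 41.4% of all genes. Some members were called all the same. Of the mitochondrial ribosomal genes 5 were higher (8.20%) and 4 lower (6.56%). Of the DNA replication genes 2 were higher (4.88%) and 5 lower (12.2%), beside 19.7% and 17.4% of all genes. Of the TORC1 and TORC2 subunit genes, 0 were called with limma, 0 at an unadjusted p under 0.05, and 0 with edgeR or DESeq2, but after quantile normalization pop3 was called, at −0.13 (adjusted p = 0.040 with limma). Tor2, the kinase of TORC1 in this species, measured 21.1 and 22.3 FPKM with rapalink-1, 20.9 and 19.9 with rapamycin, and 20.4 and 20.7 untreated, and its interval ran from −0.05 to 0.23. For tor1, the kinase of TORC2, the interval ran from −0.22 to 0.12, and for mip1, the Raptor homologue, from −0.09 to 0.15. The transcript of the GATA factor gaf1 measured 61.6 and 63.9 against 59.9 and 60.9 FPKM, with an interval from −0.04 to 0.15. The most abundant glycolytic genes were bounded as well, tdh1 from −0.25 to 0.11, fba1 from −0.23 to 0.12 and pdc101 from −0.20 to 0.08.

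Genes of the binding partner and of TOR regulation differed in places. Fkh1, the FKBP12 that both compounds hold through their rapamycin moiety, measured 725 and 702 FPKM with rapalink-1, 594 and 556 with rapamycin, and 573 and 582 untreated. Rapalink-1 cultures were above the rest, which overlapped, and the difference was 0.31 with an interval from 0.21 to 0.41 (adjusted p = 0.00093 with limma). The nuclear isomerase of the same family, fkbp39, measured 273 and 272 FPKM with rapalink-1, 505 and 469 with rapamycin, and 375 and 332 untreated. It was above untreated with rapamycin, by 0.47, and below with rapalink-1, by −0.37, so that the compounds differed by −0.83 (SE 0.06, adjusted p = 1.9e-05 with limma).

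Of 32 genes of TOR regulators and effectors 4 were higher (12.5%), 6 lower (18.75%) and 15 bounded (46.9%). The shares over all genes were 19.7%, 17.4% and 41.4%, so the group as a whole was not set apart by its calls. The arrestin-related any1, which acts in permease trafficking, fell by 0.52 (SE 0.05), the kinase gene ppk18 by 0.50 (SE 0.08) and the phosphatase regulator gene tap42 by 0.38 (SE 0.07). The TORC1 inhibitor tsc1 was higher by 0.36 (SE 0.06), with 32.1 and 32.9 against 25.1 and 25.2 FPKM, in a model overlapped over 33.8%. The Ecl and zinc finger genes included ecl1, a small protein known for extending chronological lifespan. Ecl1 measured 13.0 and 12.9 FPKM with rapalink-1, 26.4 and 24.5 with rapamycin, and 9.98 and 10.9 untreated. Rapamycin cultures were the high ones, and the difference between the compounds was −0.92 (SE 0.07, adjusted p = 3.6e-05 with limma). The zinc finger gene rsv2 measured 66.2 and 63.7 with rapalink-1, 36.2 and 42.1 with rapamycin, and 12.1 and 15.1 FPKM untreated, so it rose with both and further with rapalink-1, in a model overlapped over 37.2%.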

How the data were processed

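PolyA RNA from 2 cultures per condition was sequenced as paired-end reads. The submitters' processing notes name HISAT2 2.0.5, StringTie 1.3.3b, featureCounts 1.5.0-p3 and DESeq2, without a role or order. The genome build and the strand setting are not given in the sources used here. The authors deposited FPKM of 7268 genes for each library. Their tables of comparisons also hold read counts, and the deposited fold changes and p-values in them were not used. Each library's FPKM divided by the worth of 1 read gave whole reads for 100% of values, and these equalled the deposited counts wherever a count was listed (1809 or 2079 genes per library).

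FPKM were divided by median-of-ratios factors (0.998 to 1.003), a pseudocount of 1 was added and log2 taken. The 6 libraries entered 1 fit with limma 3.58.1 (R 4.3.3), with an intensity trend and no replicate block, over genes averaging at least 1 FPKM. It gave two-sided p-values with Benjamini-Hochberg adjustment over the 4847 genes. An exact permutation test of 2 against 2 libraries was not used, since it cannot reach the threshold. On simulated reads for this comparison, with 4854 genes, limma recovered 94 of 106 genes changed 1.5-fold and 94 of 94 changed 2-fold, and called 15 of 4654 unchanged genes. The simulation gave every gene the same dispersion, drew genes independently and changed few of them. Its counts check the code and are no error rate for the real data. Alternatives were a pseudocount of 0.1, no filter, a mean of at least 10 FPKM, no further scaling, quantile normalization, the 4 drug-treated libraries alone, the replicate block, no trend, leaving out each library, and tests of the recovered reads with edgeR 4.0.16 and with DESeq2 1.42.0.

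The genes compared, the gene lists and the alternatives were chosen with earlier results of these data known, and the lists carry no test. After values were seen, RNase P genes were taken out of the ribosomal proteins, car1 out of the vitamin genes, sib2 out of the arginine enzymes and trl1 out of the tRNA ligases. Genes named in the text are the 15 coding genes that rose most and the 15 that fell most (called, mean of at least 5 FPKM, no overlap between groups), up to 4 called members per list, the known targets fkh1, tor1, tor2, mip1 and gaf1, the 5 largest non-coding differences and the most abundant bounded genes. Others are said to have been chosen after their values were seen. Copies were searched with BLAST 2.17.0 in ASM294v3 at 90% identity, and upstream windows were read from it with Python 3.11.15 for 4316 of 4329 coding genes tested.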

Additional observations from a re-analysis of the deposited data

How the results depend on the processing

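Total calls ran from 1275 to 1906 over the alternatives, beside 1802, and genes higher by at least 1.5-fold from 151 to 234, beside 219. Genes lower by at least 1.5-fold were 88 after quantile normalization, beside 58. Genes lower by at least 2-fold, 3 in the main fit, were 7 with a pseudocount of 0.1 or edgeR, and 1 without a filter, without a trend or with the replicate block. Without a single library, counts of lower genes ran from 551 to 794, from 54 to 66 at 1.5-fold and from 2 to 10 at 2-fold. Over the same omissions, autophagy genes higher were 7 to 12, vacuole genes higher 7 to 15, ribosomal proteins lower 11 to 90, tRNA modification enzymes lower 9 to 16, amino acid synthesis lower 13 to 20, chaperones lower 7 to 12, chromosome-end genes lower 9 to 14, and non-coding RNAs 35 to 59 higher and 15 to 36 lower. Ribosomal proteins lower were 54 after quantile normalization or with DESeq2 and 17 with the 4 drug-treated libraries. After quantile normalization, citric acid cycle genes higher were 5, beside 8, and proteasome genes higher 16, beside 26. At a mean of at least 10 FPKM, which tests fewer genes, chromosome-end genes higher were 18, and non-coding RNAs 12 higher and 11 lower, beside 29 and 16 with DESeq2. The ACGTCA share of genes higher was 2.60% at 2-fold, beside 7.61%. Where no construction shows it, the cause was not tested. No named gene that was called changed sign, but the split of calls turned after quantile normalization, to 792 higher and 1114 lower, beside 957 and 845.

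Samples with the same replicate number did not deviate together (r across genes of −0.01, 0.00 and 0.04 for the 3 pairs of conditions), so the numbers were not taken as pairs. The replicate block gave 1791 calls and ended the call of 2 of the 175 named genes that were called. Of these 175, 15 lost their call without the second rapamycin library, 14 without the first rapalink-1 library, and 8 with DESeq2. With 2 cultures per condition and 1 experiment, differences under the median interval of 0.13 log2 units are mostly not resolved, and genes below 10 FPKM were called less often (12.1% higher and 6.81% lower of 925) than those above 100 FPKM (31.4% and 23.8% of 1098).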

Other observations

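Genes of central carbon metabolism went both ways. Of 20 genes of the citric acid cycle and pyruvate dehydrogenase, 8 were higher with rapalink-1 (40%) and 4 lower (20%), with a median of 0.06. The shares over all genes were 19.7% and 17.4%, and after quantile normalization 5 of the 20 were higher. Malate dehydrogenase, mdh1, was higher by 0.42 (SE 0.05) and the isocitrate dehydrogenase subunit gene idh1 by 0.40 (SE 0.05), while the cytosolic ATP citrate synthase gene SPBC1703.07 fell by 0.35 (SE 0.04). Outside this list, the mitochondrial pyruvate carrier gene mpc2 fell by 0.82 (SE 0.08), in a model overlapped over 64.0%. Of 16 glycolysis genes 4 were higher (25%) and 2 lower (12.5%), shares near those of all genes. The 2 were adh4, which fell by 0.55 (SE 0.05), and phosphofructokinase, pfk1, which fell by 0.33 (SE 0.05). Of 10 iron genes 4 were higher and 1 lower. The ferric reductase gene frp1 was higher by 0.43 (SE 0.12), but at 0.27 (adjusted p = 0.15 with limma) without the first rapamycin library, and the calls of fip1 and fep1 were also lost without that library. The only tested gene of 4-aminobutyrate use, the succinate-semialdehyde dehydrogenase SPAC1002.12c, was higher by 0.56 (SE 0.09). Of 18 ergosterol genes 13 were bounded within 1.2-fold, and erg31 and erg11 fell by 0.37 (SE 0.06) and 0.30 (SE 0.04). In the mitotic list, 6 of 30 kinetochore, spindle and anaphase genes were higher and 1 lower, beside 19.7% and 17.4% of all genes.

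Of the 15 largest decreases, 14 had a mean FPKM with rapamycin above untreated and 13 a mean with rapalink-1 below it. In 12 both held. Over all 4847 genes these counts were 2427, 2506 and 797, and the choice of the 15 by their difference favours both. In some genes lower with rapalink-1 than with rapamycin, the rapamycin cultures were the ones that stood apart. The predicted haem reductase gene SPCC330.03c measured 25.2 and 24.3 FPKM with rapalink-1, 45.4 and 41.7 with rapamycin, and 23.6 and 24.9 untreated. SPCC24B10.18, a small conserved protein, measured 41.4 and 37.8 against 67.1 and 65.7 FPKM, with 47.3 and 40.5 untreated. In both genes the rapalink-1 and untreated cultures lay close together.

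The rRNA genes varied widely between replicates. SPRRNA.43 measured 7.52 and 13.8 FPKM with rapalink-1, 27.7 and 64.6 with rapamycin, and 105 and 20.6 untreated, the untreated values enclosing those of rapamycin. Its difference of −1.95 (SE 0.65, adjusted p = 0.045 with limma) became −1.36 (adjusted p = 0.24) without the second rapamycin library, and the call was also lost without either rapalink-1 library, with the replicate block, without a trend or a filter, with DESeq2 and after quantile normalization. Copies of identical sequence exist in the genome and polyA capture depletes rRNA. Over 13 rRNA genes 1 was higher and 6 lower. The RNA SPNCRNA.935 ends at the start of per1 and rose with it, from 0.279 and 0.240 to 10.5 and 9.25 FPKM, in a model overlapped over 94.4%. Genes under 1 kb were called higher in 23.6% and lower in 12.7% of cases, and genes over 2 kb in 14.9% and 20.0%.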
